A study of Mus musculus with 77 samples.

Results

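The 10 genes described here encode proteins on the surface and at the junctions of endothelial cells, the cells that line blood vessels. They were *Cd34*, *Cd93*, *Robo4* and *Emcn* on the surface, *Egfl7* and *Mmrn2* as secreted proteins that stay close to the vessel wall, and *Pecam1*, *Cdh5*, *Cldn5* and *Esam* at the contacts between endothelial cells. The genes were chosen by name, as known endothelial genes, with the comparison of OIR and control mice on P12 in view, in which *Cd93*, *Egfl7*, *Cd34*, *Robo4* and *Mmrn2* were already known to be lower. All values of that comparison are therefore given as a description without a *p* value. Some later values of *Cd34* and *Robo4* were also known. The 10 genes stood among 21154 genes with a symbol on the array, and 11 of the 55681 probes measured them. *Cd34* had 2 probes, of which the brighter was used, and each other gene had 1.

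The samples were retinas of C57BL/6 mice in the murine model of oxygen-induced retinopathy (OIR). Whole litters with their dam were randomized to 75% oxygen (hyperoxia, the OIR group) or to 21% oxygen (normoxia, the control group) from P7 until P12, and all mice were kept in room air afterwards. Retinas were collected from 13 OIR and 12 control mice on P12, from 13 and 12 on P17, and from 13 and 14 on P28, with both retinas of a mouse pooled on 1 array, and the litter of a mouse is not given, so that the litter could not be taken into account. On each of the 77 two-color arrays, retina RNA was hybridized together with universal mouse reference RNA. Every value below is a log2 ratio of retina to reference, or a difference of such ratios, so that a difference of 1 is a doubling. The labels assign the retina to Cy5, but genes of rod photoreceptors were brighter in Cy3 on all 77 arrays, by at least 3.95 on the log2 scale, and the retina was therefore read from Cy3, opposite to the labels. A gene counted as called where limma, run over all 55681 probes, gave an adjusted *p* under 0.05.

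The retina channel cleared the background clearly for 13801 to 34328 probes, depending on the array. The group medians were 20074 in OIR mice and 21122 in controls on P12, and 20310 and 20868.5 on P17. They were higher on P28, at 32916 and 32192.5. The P28 arrays did not all share this level. OIR mice 18 and 22 and control mice 41, 65, 69, 75 and 85 had between 16912 and 21000, and all other P28 arrays had 30835 or more. Each array belonged to 1 of 11 slides, and slide therefore enters below as a block and as within-slide differences. In the reference channel alone, none of the 10 genes was called between any groups compared here, and their differences lay between −0.08 and 0.14. In RNA from a whole retina, fewer endothelial cells and less RNA of a gene per endothelial cell cannot be told apart.

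Endothelial cells are joined by adherens junctions, built on VE-cadherin (*Cdh5*), and by tight junctions, in which claudin-5 (*Cldn5*) seals the gap between cells and forms part of the blood-retina barrier. PECAM-1 (*Pecam1*) and ESAM (*Esam*) are adhesion proteins of the immunoglobulin family at the same contacts. CD34 and endomucin (*Emcn*) are sialomucins of the cell surface, CD93 is a lectin-like receptor that binds multimerin-2 (*Mmrn2*) in the matrix around vessels, ROBO4 is an endothelial receptor that stabilizes vessels, and EGFL7 is secreted by endothelial cells during vessel growth. In the OIR model, high oxygen obliterates the central capillaries of the retina by P12, vessels regrow and form preretinal tufts around P17, and the tufts have largely regressed by P28.

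The sequence before the transcription start is shown for the genes for which it was at hand, whether or not they changed. RefSeq (GRCm38.p6) sequences were at hand for 5 of the 10 genes, *Cd34*, *Egfl7*, *Emcn*, *Robo4* and *Cldn5*, while *Pecam1*, *Cdh5*, *Esam*, *Cd93* and *Mmrn2* had no entry. The 250 bases before the start lie at chr1:194938571-194938820 for *Cd34*, at chr2:26580833-26581082 for the most upstream of the 3 starts of *Egfl7*, at chr9:37401722-37401971 for *Robo4*, at chr16:18776597-18776846 for *Cldn5* and at chr3:137340828-137341077 for *Emcn*, all on the plus strand. The windows of *Robo4* and *Emcn* run past the first base of the gene, 37401902 and 137341062. The start used for these genes thus lies within the gene, as do the last bases of each window. Capitals mark AGGAAG, a core bound by ETS factors such as ERG and FLI1, on either strand, so that it also reads CTTCCT.
Cd34: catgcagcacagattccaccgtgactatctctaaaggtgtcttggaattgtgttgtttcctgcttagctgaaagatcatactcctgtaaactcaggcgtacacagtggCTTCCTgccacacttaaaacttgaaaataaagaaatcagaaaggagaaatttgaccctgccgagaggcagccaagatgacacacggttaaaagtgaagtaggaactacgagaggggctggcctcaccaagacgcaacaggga
Egfl7: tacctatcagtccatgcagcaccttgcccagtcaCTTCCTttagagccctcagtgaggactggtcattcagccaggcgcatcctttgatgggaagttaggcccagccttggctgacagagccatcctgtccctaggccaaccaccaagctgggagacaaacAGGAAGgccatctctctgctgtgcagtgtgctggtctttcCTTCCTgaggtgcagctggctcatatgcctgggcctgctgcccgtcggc
Robo4: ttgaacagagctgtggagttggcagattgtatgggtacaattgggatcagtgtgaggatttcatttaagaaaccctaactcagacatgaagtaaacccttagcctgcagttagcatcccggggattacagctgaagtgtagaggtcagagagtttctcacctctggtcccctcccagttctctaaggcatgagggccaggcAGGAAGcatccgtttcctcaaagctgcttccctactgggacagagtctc
Cldn5: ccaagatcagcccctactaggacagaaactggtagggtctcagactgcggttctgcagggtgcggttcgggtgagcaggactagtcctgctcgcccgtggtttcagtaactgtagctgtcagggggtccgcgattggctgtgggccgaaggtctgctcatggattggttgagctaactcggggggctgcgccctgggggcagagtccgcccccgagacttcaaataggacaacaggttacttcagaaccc
Emcn: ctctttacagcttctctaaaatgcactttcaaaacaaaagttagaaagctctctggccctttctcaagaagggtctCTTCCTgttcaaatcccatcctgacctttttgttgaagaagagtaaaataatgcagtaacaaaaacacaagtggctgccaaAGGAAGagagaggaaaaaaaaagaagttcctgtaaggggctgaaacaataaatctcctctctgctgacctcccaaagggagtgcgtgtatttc

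AGGAAG was found 1 time before *Cd34*, 3 times before the first start of *Egfl7*, 2 times before *Emcn* and not before *Cldn5*. In the window of *Robo4* it was found 1 time, 49 bases before the end of the window and so within the gene. It was found 1 time before the second start of *Egfl7* and not before the third. On either strand, 29.5% of all 32851 windows of the same length hold it, so that a match by itself is common. A second ETS core, CCGGAA, was in none of the windows of the 5 genes and in 12.0% of all windows. The SOX core ACAAT was present before *Cd34*, *Robo4* and *Emcn* and in 27.7% of all windows. The KLF core CACCC was present before *Cldn5* and the second start of *Egfl7* and in 52.0% of all windows. The core of the hypoxia response element, ACGTG, was in none of the windows of these genes and in 16.6% of all windows.

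*Cd34*, *Cd93* and *Egfl7* rose and fell together over the course of OIR. They were lowest relative to control mice on P12, highest on P17 and near the controls again on P28, except that *Cd93* kept a difference of 0.46 on P28. *Robo4*, *Mmrn2* and *Cdh5* had differences of the same signs on P12 and P17 but of smaller size. *Cldn5* was lower on P12 and close to the controls on P17, and *Pecam1* and *Emcn* stayed within 0.06 of the controls on all 3 days. On P12, 3 of the 10 genes were called, all lower in OIR mice, and 0.0233% of all probes were called lower; since this comparison chose the genes, the count carries no weight. On P17, 3 of the 10 genes were called higher, against 0.803% of all probes called higher. *Cd34*, whose rise was known when the genes were chosen, is among them, so this count is also a description. On P28, limma called none of the 10 genes, against 0.0611% of all probes called in either direction, and 3 of the genes had an unadjusted *p* under 0.05, against 7.44% of all probes. Over the 10 genes the differences had a median of −0.47 (P12), 0.33 (P17) and 0.16 (P28), while the median over all probes was −0.00056, 0.00097 and 0.00029.

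**Figure D1:**
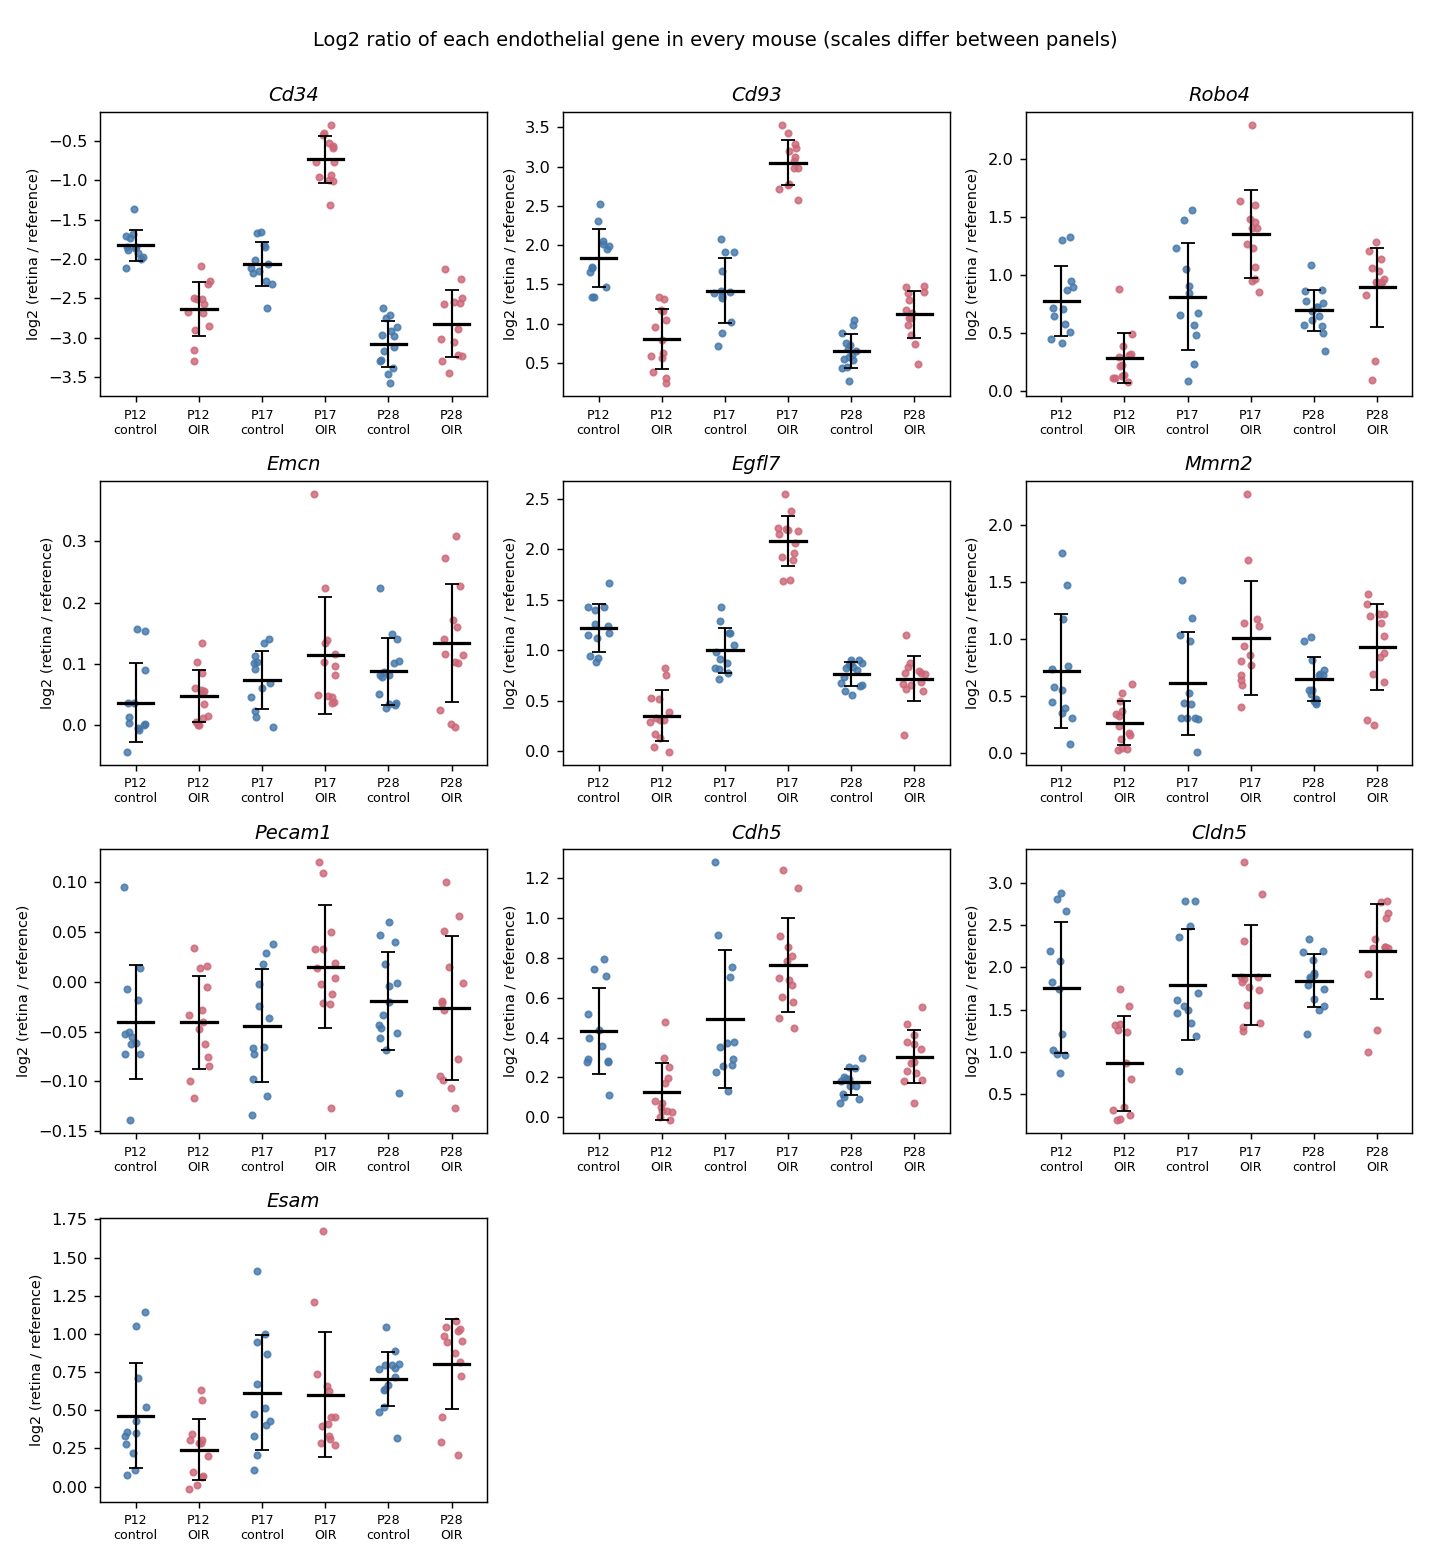
Log2 ratio of retina to reference for each of the 10 genes (y axis) in every mouse, by day and group; points are mice, blue for control and red for OIR, and the black bars show the mean and SD. On P17 all 13 OIR mice lie above all 12 control mice for *Cd34*, *Cd93* and *Egfl7*; the panels have different scales, and those of *Pecam1* and *Emcn* span only −0.14 to 0.12 and −0.04 to 0.38.

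**Figure D2:**
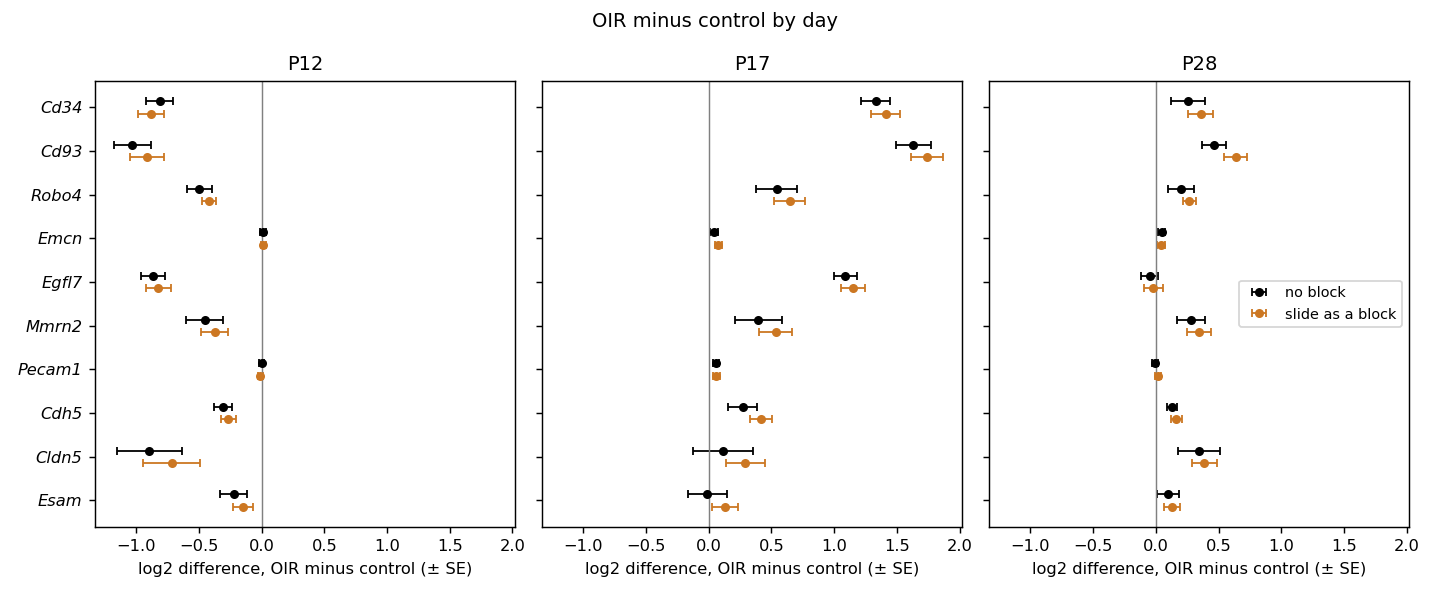
Difference in log2 ratio between OIR and control mice (x axis, with SE) for each gene on P12, P17 and P28, without a block (black) and with the slide as a block (orange). *Cd93*, *Cd34* and *Egfl7* lie left of 0 on P12 and right of it on P17, and *Pecam1* and *Emcn* lie within 0.08 of 0 in all 3 panels.

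*Cd93* (chr2:148436651-148443535) showed the largest differences of the 10 genes on P12 and P17. On P12 its log2 ratio ran from 0.24 to 1.34 in OIR mice, with a median of 0.79, and from 1.34 to 2.53 in control mice, with a median of 1.84. The groups touched at one end only, with 12 of 13 OIR mice below every control mouse. The mean was 0.81 ± 0.38 (SD, n = 13) against 1.84 ± 0.37 (SD, n = 12), a difference of −1.03 ± 0.146 (SE), which is 2.04-fold lower. On P17 the order was turned. OIR mice lay between 2.57 and 3.53 with a median of 3.07, and control mice lay between 0.72 and 2.07 with a median of 1.39. The groups did not overlap, and the difference was 1.63 ± 0.139 (SE), 3.09-fold higher in OIR mice (limma, adjusted p = 4.47e-08). On P28 the values ran from 0.48 to 1.48 in OIR mice (median 1.13) and from 0.27 to 1.05 in control mice (median 0.62). The groups overlapped again, but 12 of 13 OIR mice were above the control median and 9 of 13 above every control mouse. The difference of 0.46 ± 0.0971 (SE) missed the threshold (limma, adjusted p = 0.0716). With the slide as a block it was 0.64 and passed (limma, adjusted p = 0.00214).

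*Mmrn2* (chr14:34375504-34404287), which encodes the matrix partner of CD93, showed smaller differences than *Cd93* on all 3 days with the offset used here. On P12 its ratio ran from 0.03 to 0.61 in OIR mice (median 0.24) and from 0.09 to 1.75 in control mice (median 0.57), and 12 of 13 OIR mice were below the control median. The difference was −0.45 ± 0.145 (SE). On P17 the values ran from 0.40 to 2.27 in OIR mice (median 0.86) and from 0.02 to 1.51 in control mice (median 0.44). Although 12 of 13 OIR mice were above the control median, only 2 were above every control mouse, and the difference of 0.40 ± 0.186 (SE) was not called (limma, adjusted p = 0.46). In the authors' processed values, which hold no offset, the P17 difference was 1.17 ± 0.224 (SE) and was called (limma, adjusted p = 0.00227). Why it was larger there was not tested. On P28 the difference was 0.28 ± 0.11 (SE), with 7 of 13 OIR mice above every control mouse, and was not called (limma, adjusted p = 0.634).

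*Cd34* (chr1:194938821-194961292), a sialomucin of vessels and of blood progenitors, had a retina signal below the reference in every mouse, so that its ratios were all negative. On P12 OIR mice lay between −3.30 and −2.09 with a median of −2.57, and control mice between −2.12 and −1.37 with a median of −1.85. Of the 13 OIR mice, 12 were below every control mouse, and the difference was −0.81 ± 0.109 (SE). On P17 OIR mice lay between −1.31 and −0.30 with a median of −0.76, and control mice between −2.62 and −1.66 with a median of −2.09. The groups did not overlap, and the difference of 1.33 ± 0.113 (SE) was 2.51-fold; no *p* value is given, as the rise was known when the genes were chosen. On P28 OIR mice lay between −3.44 and −2.13 with a median of −2.89, and control mice between −3.58 and −2.63 with a median of −3.05. The ranges overlapped, with 6 of 13 OIR mice above every control mouse and none below all of them, and the difference of 0.26 ± 0.135 (SE) was not called. The second, dimmer probe of *Cd34* was well above background on 25 of the 77 arrays, and its differences were −0.02 ± 0.0505, 0.06 ± 0.0483 and −0.07 ± 0.0581 (SE) on P12, P17 and P28. The probes of *Cd34* thus disagreed, and the values above rest on the brighter one, which cleared the background on each of the 77 arrays.

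*Egfl7* (chr2:26581083-26592682), whose transcribed region also holds the genes of the microRNAs miR-126a and miR-126b, was the one gene without overlap between the groups on both P12 and P17. On P12 its ratio ran from −0.01 to 0.83 in OIR mice (median 0.31) and from 0.88 to 1.66 in control mice (median 1.21). Every OIR mouse was below every control mouse, and the difference was −0.86 ± 0.095 (SE), or 1.82-fold lower. On P17 it ran from 1.69 to 2.55 in OIR mice (median 2.15) and from 0.71 to 1.43 in control mice (median 0.95). Every OIR mouse was now above every control mouse, and the difference was 1.09 ± 0.0925 (SE), 2.12-fold higher (limma, adjusted p = 4.47e-08). On P28 OIR mice lay between 0.16 and 1.15 (median 0.76) and control mice between 0.55 and 0.90 (median 0.81), so that the ranges were nested. The difference of −0.05 ± 0.0662 (SE) was within the spread (limma, adjusted p = 0.822). On P12, 0.00359% of all probes had OIR mice below controls without overlap, and 1 of the 10 genes did. On P17, 0.119% of all probes had OIR mice above controls without overlap, and 3 of the 10 genes did. The P12 comparison chose the genes, and the P17 rise of *Cd34* was known, so both counts are only a description.

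*Robo4* (chr9:37401902-37414023) followed the same course with smaller differences under the offset used here. On P12 OIR mice lay between 0.08 and 0.88 (median 0.22) and control mice between 0.41 and 1.32 (median 0.71), with 11 of 13 OIR mice below every control mouse and a difference of −0.50 ± 0.102 (SE). On P17 OIR mice lay between 0.85 and 2.29 (median 1.41) and control mice between 0.09 and 1.56 (median 0.76). All 13 OIR mice were above the control median, but only 3 were above every control mouse. The difference of 0.54 ± 0.163 (SE) was not called (limma, adjusted p = 0.134). With the slide as a block it was 0.65 ± 0.124 and was called, which was already known when the genes were chosen. On P28 the difference was 0.20 ± 0.101 (SE; limma, adjusted p = 0.679) and 0.27 with the slide as a block, where it was called, again a known value. In the processed values the P28 difference had the opposite sign, −0.38 ± 0.272 (SE), and was not called (limma, adjusted p = 0.791). *Esam* (chr9:37528089-37538319) lies on the same chromosome, 114065 bases beyond *Robo4* with 2 genes between them, and did not share its course on P17.

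At the adherens junction, *Cdh5* (chr8:104101613-104144504) was lower on P12 and higher on P17, but its probe was dim. On P12 the probe cleared the background in 5 of 13 OIR mice and in 11 of 12 controls, and on P17 in all 13 and all 12. On P12 OIR mice lay between −0.01 and 0.48 (median 0.07) and control mice between 0.11 and 0.79 (median 0.38), with 8 of 13 OIR mice below every control mouse and a difference of −0.30 ± 0.0711 (SE). On P17 OIR mice lay between 0.45 and 1.24 (median 0.70) and control mice between 0.13 and 1.28 (median 0.36), and all 13 OIR mice were above the control median. A single control mouse was above every OIR mouse. The difference of 0.27 ± 0.114 (SE) was not called (limma, adjusted p = 0.38), and with the slide as a block it was 0.42 ± 0.0878 and was called (limma, adjusted p = 0.0214). In the processed values it was 0.85 ± 0.322 (SE) and was not called (limma, adjusted p = 0.217). On P28 it was 0.13 ± 0.0391 (SE; limma, adjusted p = 0.441).

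At the tight junction, *Cldn5* (chr16:18776847-18778262) spread widely within each group. On P12 OIR mice lay between 0.19 and 1.74 (median 0.87) and control mice between 0.76 and 2.88 (median 1.79). All 13 OIR mice were below the control median, and the difference of −0.89 ± 0.261 (SE) was of the size of that of *Cd34*, but *Cldn5* was not among the called genes. On P17 the medians were 1.82 in OIR and 1.58 in control mice, and the difference was 0.11 ± 0.242 (SE; limma, adjusted p = 0.884). On P28 it was 0.34 ± 0.168 (SE; limma, adjusted p = 0.672), with 1 OIR mouse left out because its spot was marked as an outlier. *Esam* differed by −0.22 ± 0.108 (SE) on P12, by −0.01 ± 0.154 on P17 (limma, adjusted p = 0.985) and by 0.10 ± 0.0909 on P28 (limma, adjusted p = 0.749). On P17 its OIR mice ran from 0.27 to 1.67 and its control mice from 0.11 to 1.41, so that no shift between the groups was seen within that spread.

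*Pecam1* (chr11:106654213-106715281) and *Emcn* (chr3:137341062-137431069), both commonly used to mark endothelium, gave no usable contrast on these arrays. The probe of *Pecam1* was well above background on 67 of 77 arrays, yet its ratio stayed between −0.14 and 0.12 in all mice. Its differences were 0.00 ± 0.0213, 0.06 ± 0.0242 and −0.01 ± 0.024 (SE) on P12, P17 and P28. The probe of *Emcn* was well above background on 23 of 77 arrays, on none of the 13 OIR mice of P12 and on none of the 12 control mice of P17. On P17 only 3 of 13 OIR mice were measured above background, so that neither group has a measured level and no fold is given. A missing change in either gene is therefore a statement about these probes.

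The same comparisons were repeated among mice that shared a slide. On P12, 7 slides held both groups, and OIR mice were lower on all 7 for *Cd34*, *Cd93*, *Egfl7*, *Robo4*, *Mmrn2* and *Cldn5*. On P17, 6 slides held both groups, and OIR mice were higher on all 6 for *Cd34* (by 1.06 to 1.76), *Cd93* (1.41 to 2.23), *Egfl7* (0.78 to 1.51), *Robo4* (0.31 to 0.89), *Mmrn2* (0.32 to 0.90) and *Cdh5* (0.32 to 0.51). *Cldn5* and *Esam* were higher on 4 of the 6 slides and lower on the other two. On P28 only 3 slides held both groups, and 8 of the 10 genes were higher in OIR mice on all 3, all but *Egfl7* and *Pecam1*. No share over all probes is given for these counts of slides on P12, P17 and P28, and nothing is read from them. The counts of P12 also use the comparison that chose the genes. Among the 8 genes of P28, *Emcn* was dim and differed by 0.03 to 0.05 only. *Cldn5*, *Esam*, *Robo4* and *Mmrn2* had the opposite sign on P28 in the processed values. The within-slide differences were 0.43 to 0.94 for *Cd93*, 0.21 to 0.69 for *Cd34* and 0.22 to 0.30 for *Robo4*. Under the slide block, 4 of the genes were called lower on P12, *Robo4* being added, against 0.0287% of all probes. On P17, 5 were called higher, *Robo4* and *Cdh5* being added, against 0.982% of all probes, and on P28, 2 were called higher, *Cd93* and *Robo4*, against 0.203%. These block counts include the P12 comparison that chose the genes and known values of *Cd34* and *Robo4*, and are a description.

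**Figure D3:**
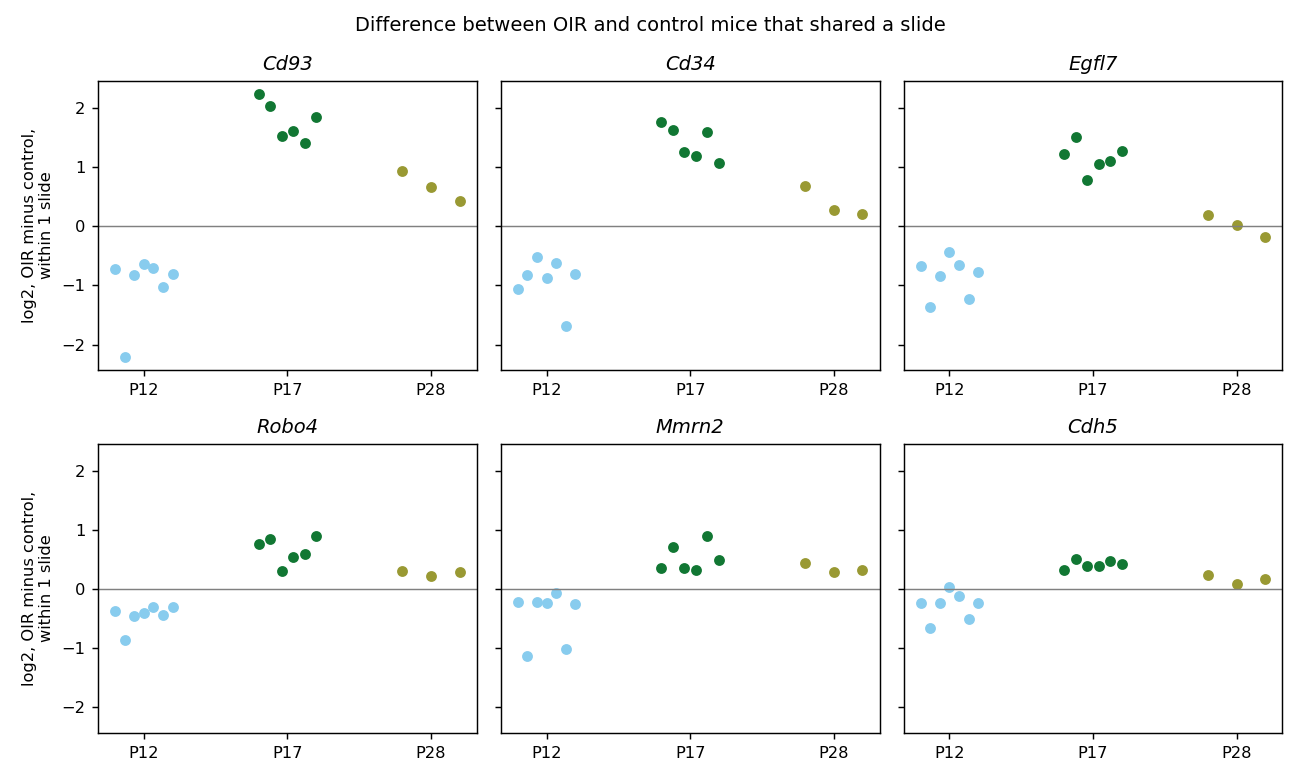
Difference in log2 ratio between the mean of the OIR mice and the mean of the control mice on 1 slide (y axis) for 6 of the genes on P12, P17 and P28; each point is a slide that held both groups of that day, 7, 6 and 3 slides. All points of P17 lie above 0, and all points of P12 lie below 0 except 1 of *Cdh5*. The 6 genes shown are those that were higher in OIR mice on all 6 slides of P17. The uniform sign on P17 thus follows from the choice of genes, and nothing is read from it. Of the genes not shown, *Cldn5* and *Esam* were lower in OIR mice on 2 slides of P17, and *Pecam1* and *Emcn* on 1. On P12, *Cldn5* was lower on all 7 slides, *Esam* on 6, and *Pecam1* and *Emcn* on 4.

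In control mice alone, the genes were followed through normal maturation. The control mice of P12 are one side of the comparison that chose the genes, so the change from P12 to P17 is given without a *p* value. From P12 to P17, limma called none of the 10 genes, against 1.28% of all probes in either direction; 2 had an unadjusted *p* under 0.05, against 8.21% of all probes, and nothing is read from these counts. The largest change was that of *Cd93*, −0.42 ± 0.135 (SE). From P17 to P28, 3 genes were called lower, against 5.38% of all probes. *Cd34* fell by 1.02 on the log2 scale (SE 0.123; limma, adjusted p = 9.78e-09), *Cd93* by 0.77 (SE 0.13; limma, adjusted p = 1.69e-05) and *Cdh5* by 0.32 (SE 0.0801; limma, adjusted p = 0.00356). All 3 genes were lower on P28 on each of the 6 slides that held control mice of both days, by 0.35 to 1.47 for *Cd34*, by 0.07 to 1.47 for *Cd93* and by 0.02 to 0.77 for *Cdh5*. Most arrays of P28 also had more probes above background than those of P17, and the part of this in the falls was not tested. With the slide as a block 5 genes were called lower, *Robo4* and *Egfl7* being added with −0.27 and −0.29 (limma, adjusted p = 0.0114 for both), against 6.75% of all probes.

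In OIR mice the changes between days were larger. From P12 to P17, 7 of the 10 genes were called higher, against 1.94% of all probes, but the mice of P12 are those that chose the genes, and only values are given. *Cd93* rose by 2.24 on the log2 scale, *Cd34* by 1.91, *Egfl7* by 1.73, *Robo4* by 1.07, *Cldn5* by 1.04, *Mmrn2* by 0.74 and *Cdh5* by 0.63. From P17 to P28, 5 genes were called lower, against 19.4% of all probes. Markers of other cells were called lower as well, 6 of 8 rod genes, 9 of 12 mural genes and 8 of 14 genes of microglia and leukocytes, and the part of a general shift between these days in the falls of the 10 genes was not tested. *Cd93* fell by 1.93 (SE 0.129; limma, adjusted p = 3.21e-20), *Egfl7* by 1.37 (SE 0.0856; limma, adjusted p = 1.75e-21), *Robo4* by 0.46 (SE 0.126; limma, adjusted p = 0.00187) and *Cdh5* by 0.46 (SE 0.0799; limma, adjusted p = 3.74e-06), and *Cd34* by 2.09. Only 1 slide held OIR mice of both days, and all 5 were lower on P28 there, by 0.49 for *Cdh5* up to 1.81 for *Cd93*. That slide held only 1 OIR mouse of P28, whose array had 19046 probes well above background against a group median of 32916. *Cldn5* and *Mmrn2* also differed there, by −0.51 and −0.54, and *Pecam1* by 0.08. Over all OIR mice, the mean of *Cldn5* was 1.91 on P17 and 2.19 on P28. The part of this 1 array in the falls on that slide was not tested. The effect of OIR changed from P17 to P28 by −1.17 ± 0.183 (SE) for *Cd93* (limma, adjusted p = 3.59e-05), by −1.13 ± 0.121 for *Egfl7* (limma, adjusted p = 1.24e-09) and by −1.07 ± 0.173 for *Cd34*. These were the 3 genes of the 10 called lower in that comparison, against 0.244% of all probes. The P17 rise of *Cd34* was known when the genes were chosen, so this count is a description. From P12 to P17 the effect changed upward for 6 genes, against 0.436% of all probes, a count that again includes the mice of P12. These comparisons share the mice of P17 and are not independent of each other.

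The genes also varied together between mice of the same group. After the mean of each group was subtracted, the median Pearson correlation over the 45 pairs was 0.604 across the 77 arrays. Within single groups the median was between 0.152 in control mice of P28 and 0.598 in OIR mice of P17. The pooled correlation was highest for *Esam* with *Mmrn2*, at 0.94. *Cd34* and *Pecam1* did not take part, with a correlation of −0.0808 and −0.173 with the mean of the others. Some mice were at the end of their group in many of the genes. One OIR mouse was the highest of its group on P17 in 6 of the 10 genes, one control mouse was the highest of its group on P17 in 7, and one control mouse was the highest of its group on P12 in 7. Their arrays had 30010, 27918 and 28234 probes well above background, each more than 25% above the median of its group. The control mouse of P17 that was lowest in 5 genes had 13801, the fewest of all 77 arrays. Other mice at the low end had arrays near the median of their group. The OIR mouse of P17 that was lowest in 5 genes had 20469 probes, against a median of 20310. Another control mouse of P17, lowest in 4 genes, had 20803, against 20868.5. Many of the mice at an end thus had unusually bright or dim arrays, but not all. The part of brightness in the correlation was not tested. With the mean of each slide subtracted as well, the median correlation of the pairs was 0.411 and that of *Cd34* with the mean of the others was 0.304.

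**Figure D4:**
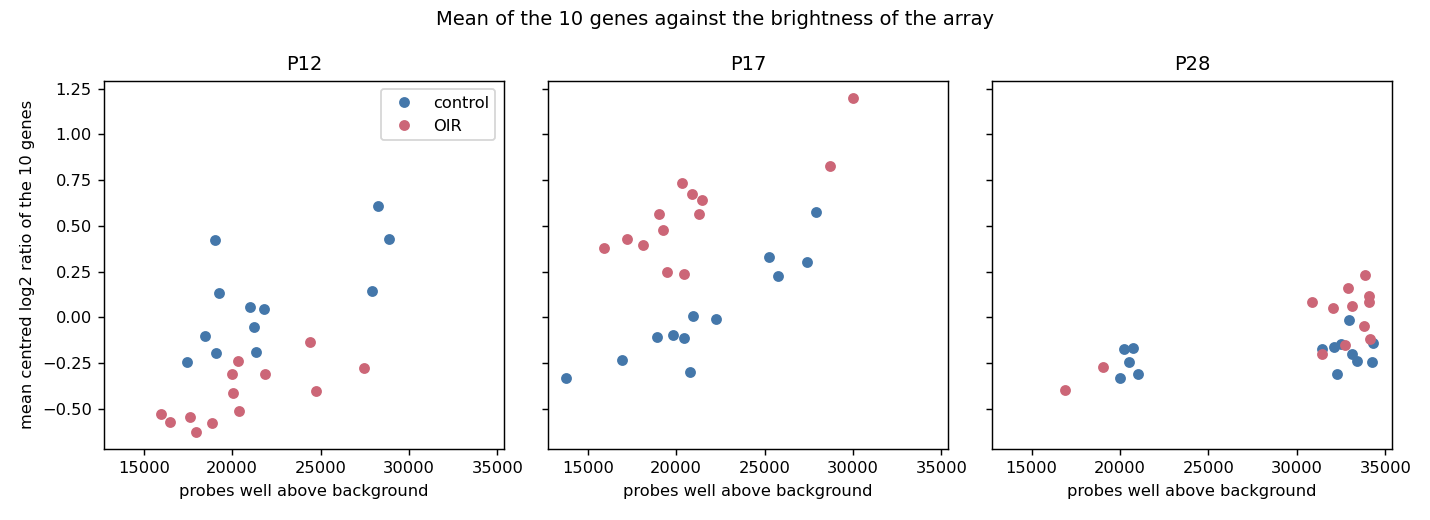
Mean of the centred log2 ratios of the 10 genes in each mouse (y axis) against how many of its probes cleared the background in the retina channel (x axis), for P12, P17 and P28; points are mice, blue for control and red for OIR. On P17 the brightest array of each group, with 30010 probes in OIR and 27918 in control mice, has the highest mean of its group, and OIR mice lie above control mice with a like number of probes.

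Without the 16 arrays whose number of probes well above background lay more than 25% from the median of their group, the differences of the 3 leading genes kept their size. On P17 they were 1.67 for *Cd93*, 1.36 for *Cd34* and 1.11 for *Egfl7*, and *Robo4*, at 0.51, was called in addition. On P28 the arrays left out were all dimmer than the rest of their group, and *Cd93* was then called with 0.59 (limma, adjusted p = 0.0183). The genes with the most similar pattern, outside the 10, were sought by the correlation with their mean across the 77 arrays after the group means were subtracted, over 21144 genes. The 5 closest were *Tmem179* (0.87), *Sox18*, a transcription factor of endothelial cells (0.867), *Shc2* (0.865), *Ankrd34a* (0.864) and *Rgs5*, a pericyte gene (0.861). As 159 genes exceeded 0.8, these ranks are close to each other. After the slide was subtracted as well, no gene exceeded 0.8, and *Grrp1* came first with 0.796. Between OIR and control mice on P17, *Sox18* and *Rgs5* differed by 0.00 and 0.04, *Tmem179* by −0.32, *Shc2* by −0.22 and *Ankrd34a* by −0.57.

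Known partners of these proteins were taken from lists by role. Of 28 genes of surface proteins and ligands, 6 were called higher on P17, against 0.803% of all probes. On P12 limma called none of them, and 7 had an unadjusted *p* under 0.05, against 3.12% of all probes. In the processed values, however, *Icam2* and *Ptprb* were called on P12 (limma, adjusted p = 0.00431 and 0.0398). Those called on P17 were *Vwf*, von Willebrand factor of endothelial storage granules (0.97 ± 0.123, SE; limma, adjusted p = 2.31e-05), *Itgb1*, an integrin subunit of many cell types (0.73), *Eng*, a co-receptor for TGF-beta (0.59), *Unc5b*, a receptor that binds ROBO4 (0.58), *Icam2*, an adhesion protein (0.37), and *Plvap*, a protein of fenestrated endothelium (0.29). *Plvap* was not called with the slide as a block (limma, adjusted p = 0.0608). *Vwf* was also called higher on P28, with 0.68 ± 0.083 (SE; limma, adjusted p = 9.31e-05), and no other gene of that list was. In the processed values this P28 call was lost (limma, adjusted p = 0.0898). *Ptprb*, the phosphatase that acts on VE-cadherin, differed by −0.70 on P12 (limma, adjusted p = 0.0803), by −0.01 on P17 and by 0.44 on P28. The slide block made it called lower on P12, with −0.59 (limma, adjusted p = 0.0155), and higher on P28, with 0.58 (limma, adjusted p = 0.0176). *Clec14a* and *Mmrn1* were near background, with 13 and 1 of 77 arrays well above it. *Slit2*, a ligand of the ROBO family, differed by −0.28 on P17 and *Podxl*, a sialomucin related to CD34, by −0.08, and neither was called.

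Of 21 partners at the junctions, limma called none on any of the 3 days; 6 of them had an unadjusted *p* under 0.05 on P17, 1 on P12 and 2 on P28, against 10.4%, 3.12% and 7.44% of all probes. On P17 *Ctnnb1*, which encodes beta-catenin and binds VE-cadherin, differed by −0.28, *Ctnnd1*, encoding p120-catenin, by 0.07, and *Tjp1*, encoding ZO-1, by −0.23. The probe of *Ocln*, encoding occludin, was well above background on 1 of the 25 arrays of P17, so that no difference is given. Many of these proteins are also made by glia, neurons or epithelium of the retina. With the slide as a block, *Gja4*, an arterial connexin, and *Nectin2* were called higher on P17, with 0.30 and 0.27 (limma, adjusted p = 0.0346 and 0.0353). Of 17 transcription factors of endothelium, 4 were called higher on P17, *Elk3* (0.54), *Ets1* (0.51), *Lyl1* (0.50) and *Tal1* (0.27), against 0.803% of all probes. None of the 17 was called by limma on P12 or P28, where 2 and 1 had an unadjusted *p* under 0.05, against 3.12% and 7.44% of all probes. In the processed values, however, *Ets1* was called on P12 (limma, adjusted p = 0.000216). *Fli1* was at 0.27 and was not called, and *Erg* was near background, with 11 of 77 arrays well above it.

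Markers of other cells that touch or fill vessels moved on P17 as well. Of 12 genes of mural cells, 4 were called higher on P17, against 0.803% of all probes. They were led by *Cd248* (1.97 ± 0.177, SE, limma, adjusted p = 1.16e-07) and *Tagln* (1.03). On P12 *Abcc9* was called lower (−0.37), against 0.0233% of all probes. In the processed values *Cd248* was called on P12 as well (limma, adjusted p = 2.04e-06). The mean ratio of the 12 genes ran from −0.74 to −0.18 in OIR mice and from −1.23 to −0.53 in control mice of P17. Of 14 genes of microglia and leukocytes, which can also carry *Cd93* and *Pecam1*, 2 were called higher on P17, *Csf1r* (0.51) and *Aif1* (0.33). On P28, 1 was called higher, *Csf1r* (0.41). The shares of all probes called higher were 0.803% on P17 and 0.0557% on P28. Their mean ratio ran from −0.71 to −0.20 in OIR mice and from −1.18 to −0.24 in control mice of P17. Of 6 red cell genes measured, 1 was called higher on P17, *Hba-a1* (1.38), against 0.803% of all probes. Its call was lost with the slide as a block (limma, adjusted p = 0.0506). The mean ratio of the 6 genes ran from 0.34 to 1.37 in OIR mice and from 0.22 to 0.68 in control mice of P17. None of 8 platelet genes was called by limma on any day, and *Gp1ba*, *Gp9* and *Ppbp* were well above background on no array. On P17, 2 of the 8 had an unadjusted *p* under 0.05, against 10.4% of all probes. None of 8 rod genes and none of 7 lens genes was called by limma between OIR and control mice on any day. Only 1 rod gene and no lens gene had an unadjusted *p* under 0.05, on P17, against 10.4% of all probes. By contrast, 1 of 8 genes of the pigment epithelium was called lower on P17, *Rpe65* (−0.81), against 0.33% of all probes. It was not called with the slide as a block (limma, adjusted p = 0.0787). What these cells contribute to the values of the 10 genes was not tested.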

How the data were processed

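Retinas of 77 mice were measured on two-color Agilent arrays, 1 mouse per array, against universal mouse reference RNA. Per the file headers, the authors read each spot as an intensity without normalization, as its median signal and its median local background (Feature Extraction 10.7.3.1), and the log10 ratio in these files is that of the processed Cy5 to Cy3 signals. The processed values that the authors deposited are log2 ratios of Cy3 to Cy5, equal to those of the scanner files within 0.001 for 99.7% of probes on the array with the lowest share, with medians between −0.13 and 0.0099 and no centering found. The dye direction in the labels was not followed, since rod genes show that Cy3 holds the retina. The study used GeneSpring GX, with a moderated test and Benjamini-Hochberg correction, and its normalization settings are not given in the sources used here.

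Median signals were background corrected (normexp, offset 50) and loess normalized within each array with limma 3.58.1 in R 4.3.3. Spots marked as outliers, 0.592 to 0.951% of the 62976 per array, were left out, and spots of a probe were averaged. An offset draws the ratio of dim spots towards 0. Probes were named through the RefSeq transcripts of GRCm38.p6 (28026 of 55681 with a symbol), and a gene was read from its brightest probe. For each day, a separate model compared the 2 groups with the moderated, two-sided test of limma, adjusted by Benjamini-Hochberg across 55681 probes; contrasts between days came from 1 model with 6 group means. The procedure was run on simulated data with independent noise for each probe and array. These data held no slide, brightness or litter effects, so nothing is read from them about such effects. Arrays were grouped by their labels, and no array was excluded from the values reported first. Mice are taken as independent samples, though littermates may be among them. The number of arrays limits the precision.

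The 10 genes, the partner and cell type lists and the rules below were chosen with earlier results of these data known. Named are all 10 genes on each day, the 2 largest rises and falls on P17 among the called genes of each list, known binding partners whatever their value, and the 5 genes most like the 10; further called list members were named after their values were seen. The alternatives tried were signals without background subtraction, an offset of 0, the processed log ratio, the retina channel alone, the slide as a block, array weights, no dim probes, the mean of all probes of a gene, another variance model and other samples in the fit. The processed ratio with the slide as a block, and leaving out 16 arrays of unusual brightness, were added after seeing the data.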

Additional observations from a re-analysis of the deposited data

Results flagged for a closer look

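The effect of OIR, as the difference in log2 ratio between OIR and control mice, differed between days for 6 of the 10 genes when P17 was set against P12. The change was 2.66 for *Cd93*, 2.14 for *Cd34*, 1.95 for *Egfl7*, 1.04 for *Robo4*, 0.85 for *Mmrn2* and 0.575 for *Cdh5*. The comparison on P12 had a part in choosing the genes, so these values are a description. With the slide as a block, *Cldn5* was called as well. When P28 was set against P17, a contrast without the mice of P12, the effect changed by −1.17 for *Cd93* (limma, adjusted p = 3.59e-05), by −1.13 for *Egfl7* (limma, adjusted p = 1.24e-09) and by −1.07 for *Cd34*, whose rise on P17 was known when the genes were chosen. The other 7 genes were not called there.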

How the results depend on the processing

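Over the 3 days, the 10 genes and 12 alternatives, 338 of 360 differences between OIR and control mice kept their sign, 22 turned it, no call was lost and 28 were gained. No turned value was called in either setting. On P12, 5 genes were called in the processed values and in the retina channel alone, in place of 3. On P17, 5 were called with an offset of 0, with the slide as a block and with array weights, and 6 in the retina channel alone. On P28, in place of 0, 2 were called with the slide as a block and 1 each with array weights, without dim probes, in the processed values with the slide as a block and without the arrays of unusual brightness. In control mice, 1 gene was called from P12 to P17 in the retina channel alone, with the slide as a block, with array weights and in the processed values with the slide as a block, and 5 from P17 to P28 in the retina channel alone and with the slide as a block. In OIR mice from P17 to P28, 8 were called in the processed values (1 higher), in place of 5. Without the arrays of unusual brightness 9 were called (3 higher, among them *Cldn5* with 0.70 and *Esam* with 0.45). That setting leaves out the OIR mice of P28 whose arrays were about as dim as most of P17, and the cause was not tested. On P17 *Cldn5* turned to −0.0223 without the arrays of unusual brightness, and *Esam* to 0.0651 with an offset of 0, 0.053 in the processed values, 0.182 in the retina channel alone and 0.128 with the slide as a block. On P28 *Pecam1* turned to 0.00159 without background subtraction, 0.0367 with an offset of 0, 0.187 in the processed values, 0.0176 with the slide as a block, 0.0529 with both and 0.00954 without the arrays of unusual brightness. *Cldn5* turned to −0.049 with an offset of 0, −0.449 in the processed values and −0.13 with the slide as a block there. *Esam* turned to −0.0779 and −0.321, and *Robo4* to −0.241, −0.381 and −0.438, in the same settings. *Mmrn2* turned to −0.083 in the processed values and −0.0583 with the slide as a block there, and *Egfl7* to 0.022 in the retina channel alone. Dim probes limit *Emcn*, *Pecam1* and *Cdh5* most. No paired analysis was possible because every mouse has its own number and the groups share none.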
